A study of Homo sapiens with 16 samples.

Results

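Ribosome footprints were compared between MDA-MB-231 cells in which CRISPR interference (CRISPRi) was aimed at the isoleucine tRNA with anticodon GAU and MDA-MB-231 cells in which it was aimed at eGFP, both carrying a control construct. The 4 footprint libraries of this comparison, 2 per arm, are 4 of the 16 libraries of the series. They were chosen by their titles: assay, CRISPRi target ("Ile GAT" or eGFP) and construct. The other 12 libraries are the matching total RNA of both arms and the same arms with a construct for tRNA-Ile-UAU, in both assays. The eGFP arm with the control construct is called the control below, and the Ile GAT arm with the control construct the knockdown. Control and knockdown cells therefore share CRISPRi, a guide and a construct, and differ in what the guide targets. MDA-MB-231 is a human triple-negative breast cancer line of mesenchymal type, and the labels call the source a xenograft cell line. Cells were grown in medium with serum and no drug treatment is named. For footprints they were lysed with cycloheximide, which holds ribosomes on the mRNA, and ribosomes were pelleted through sucrose. The labels number the 2 libraries of an arm but do not say that they come from separate cultures, so the p-values below measure the spread between these libraries, which may be technical. They also do not say whether an arm is 1 clone or a pool, nor which repressor was used. The tRNA, the guide and the cells that received it coincide, so their effects cannot be told apart.

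A translating ribosome shields a short stretch of mRNA from nuclease, and sequencing these footprints counts ribosomes per gene: more footprints can mean more mRNA, more ribosomes per mRNA, or slower ribosomes. Isoleucine is read by a few tRNA species. In human cells the main one carries anticodon AAU, in which the first base is modified to inosine, a minor one carries UAU and reads AUA, and the GAU species has few genes. RefSeq's table for GRCh38.p14 lists 3 genes for tRNA-Ile-GAU, at chrX:3838377-3838450, chrX:3876801-3876874 and chrX:3915230-3915303. The files name 0 tRNA-Ile genes, so the level of the targeted tRNA was not analysed here.

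The control libraries held 607919 and 605973 counts on genes and the knockdown libraries 849043 and 827653. Levels are given as CPM, counts scaled to library size, with sizes corrected by TMM, which allows a gene to be compared between libraries but not with a gene of another length. Replicates correlated across genes at 0.960 in the control and 0.970 in the knockdown (log2 CPM). Most alignments, 97.0 to 98.8% in the 8 footprint libraries, fell on several places of the genome and are not in the gene counts. Genes with near-identical copies (ribosomal proteins, histones, actins, hair keratins) are therefore measured only through their unique stretches, and their levels are uncertain.

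Of 8143 genes tested, 37 had more footprints in the knockdown and 53 had fewer (edgeR's quasi-likelihood test, adjusted p under 0.05, called here passing the test). That is 0.454% of genes in the upward and 0.651% in the downward direction, 1.11% in all. The genes that rose included extracellular proteases and their inhibitors, collagen-modifying enzymes, the laminin chains LAMB2 and LAMB3, cell contact proteins, the hair keratin KRT81 and a few chromatin proteins. Those that fell included the laminin chains LAMA5 and LAMB1, the laminin receptor subunit integrin beta 4, YAP targets, amino acid transporter subunits, ribosomal proteins, and a large group on chromosome 7. In all 90 genes both knockdown libraries lay on the same side of both control libraries, as they did for 39.4% of all tested genes. Without knockdown replicate 1 the test called 32 genes, without knockdown replicate 2 it called 46, without control replicate 1 it called 30 and without control replicate 2 it called 18. Of the 90 genes, 13 passed in each of these 4 fits, 37 in none, and 0 changed sign. The 13 included ACTB, CDH11, GPRC5C, HSPB1, IGFBP1, ITGB4, KRT81, LAMB1, PTK7, S100A4, TGM2 and ZNF10. DESeq2 called 25 genes (0.307%), with no adjusted p for 45 of the 90. The 20 that it tested and did not call had adjusted p from 0.0525 to 0.64: RPS15, CTSC, GNB2, SLC3A2, EMP3, PLS3, TGFBI, CTGF, RPS16, SND1, COL13A1, SLC7A5, ARHGAP29, SLC4A2, RPL13A, YWHAG, SRGN, FLNC, SLC22A2 and LSM4. The groups of genes below were formed from the 90 once they were known, so a count within such a group has no tested background unless a gene list is named.

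Of the 53 genes that fell, 32 lie on chromosome 7, where 371 genes were tested and 8.63% passed. No chromosome 7 gene rose, and 326 of the 371 had a log2 fold change below 0. Their median was -0.39, against 0.02 for genes on other chromosomes. Off chromosome 7 the test gave 37 genes that rose (0.476%) and 21 that fell (0.27%). When the chromosome 7 genes were scaled among themselves, an alternative chosen after seeing the data, only 3 of the 32 still passed, among them LAMB1 at -0.71 ± 0.14 (SE, adjusted p = 0.000456) and IGFBP1 at -0.88 ± 0.22 (adjusted p = 0.0245). In total RNA all 32 were also below 0, with a median of -0.49, and the chromosome 7 genes tested in footprints had an RNA median of -0.40. Chromosome 7 genes were thus lower as a group in both assays, and the part of this shift in the chromosome 7 genes named below was not tested beyond that scaling. DNA copy number was not analysed here.

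Genes of the basement membrane and its receptor moved in both directions. Laminins are trimers of an alpha, a beta and a gamma chain that form the sheet on which epithelial cells sit, and integrin alpha 6 beta 4 is the receptor that anchors cells to it. Of 28 tested laminin, collagen and other matrix genes, 2 rose and 4 fell (median log2 fold change -0.07). LAMA5, the alpha chain found in most epithelial basement membranes, read 572 and 614 CPM in the control and 436 and 363 CPM in the knockdown, a fall on the log2 scale of -0.57 ± 0.12 (adjusted p = 0.00176). LAMB1, a beta chain encoded on chromosome 7, read 360 and 443 against 182 and 190 CPM (-1.11 ± 0.14, adjusted p = 3.23e-10). The other 2 beta chains went the opposite way. LAMB3, the beta chain of the laminin under hemidesmosomes, read 490 and 507 CPM in the control and 753 and 680 CPM in the knockdown (0.52 ± 0.12, adjusted p = 0.00381). LAMB2 read 249 and 288 against 418 and 378 CPM (0.57 ± 0.13, adjusted p = 0.00738). So 2 of 3 laminin beta chains rose while the third fell. LAMA3, the alpha chain of that laminin, did not pass (-0.85, adjusted p = 0.154).

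ITGB4, integrin beta 4, read 643 and 636 CPM in the control and 411 and 312 CPM in the knockdown (-0.82 ± 0.12, adjusted p = 3.13e-07). Its partner ITGA6 was at 0.12 (adjusted p = 0.809), and of 21 tested integrin and focal adhesion genes only ITGB4 and TES, a focal adhesion protein encoded on chromosome 7, passed (median 0.00). COL13A1, a transmembrane collagen of adhesion sites, read 379 and 482 against 314 and 286 CPM (-0.52 ± 0.13, adjusted p = 0.0174). TGFBI, a secreted TGF-beta-induced protein that links collagen and integrins, read 628 and 643 against 491 and 431 CPM (-0.46 ± 0.12, adjusted p = 0.0217). Fibronectin, a matrix protein that integrins bind, did not pass (FN1, 0.26, adjusted p = 0.281). Of the 7 matrix and receptor genes that passed, ITGB4 and LAMB1 passed without any 1 of the 4 libraries. Leaving out knockdown replicate 1, knockdown replicate 2, control replicate 1 or control replicate 2 ended the call of 3, 3, 3 and 5 of them, with adjusted p up to 0.189, 0.351, 0.348 and 0.624.

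Enzymes that modify and cross-link collagen and other matrix proteins were 4 of the genes that passed, and 3 of them rose. They are not one of the 40 gene lists. TGM2, tissue transglutaminase, which cross-links proteins between glutamine and lysine, read 463 and 482 CPM in the control and 814 and 738 CPM in the knockdown (0.72 ± 0.12, adjusted p = 4.93e-06). PLOD2, the lysyl hydroxylase of collagen telopeptides, read 173 and 141 against 298 and 242 CPM (0.78 ± 0.15, adjusted p = 0.000415). P3H2, a prolyl 3-hydroxylase acting on basement membrane collagen, had a log2 fold change of 1.07 ± 0.27 (adjusted p = 0.019). PLOD3, a lysyl hydroxylase that also adds sugars to collagen and is encoded on chromosome 7, read 340 and 366 against 212 and 212 CPM (-0.74 ± 0.14, adjusted p = 0.000139). Their prolyl 4-hydroxylase relative P4HA1 was at -0.03 ± 0.15 (adjusted p = 0.972). Control and knockdown libraries did not overlap in these 4 genes, as in all 90 genes that passed and 39.4% of all tested genes. TGM2 passed without any 1 of the 4 libraries, and leaving out knockdown replicate 1, knockdown replicate 2, control replicate 1 or control replicate 2 ended the call of 2, 1, 1 and 3 of the 4 genes (adjusted p up to 0.111, 0.0922, 0.265 and 0.241).

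In extracellular proteolysis, a plasminogen activator, a receptor that clears it, a metalloproteinase inhibitor and a cathepsin rose. PLAT, tissue plasminogen activator, read 333 and 368 CPM in the control and 653 and 499 CPM in the knockdown (0.72 ± 0.13, adjusted p = 3.28e-05). The urokinase activator PLAU and its receptor PLAUR did not pass (-0.03, adjusted p = 0.959, and -0.42, adjusted p = 0.236). LRP1, the endocytic receptor that clears both activators from the cell surface, rose by 0.57 ± 0.15 on the log2 scale (adjusted p = 0.0201). TIMP3, a metalloproteinase inhibitor held in the matrix, read 936 and 885 against 1356 and 1115 CPM (0.44 ± 0.11, adjusted p = 0.0127). CTSC, cathepsin C, which activates serine proteases, read 433 and 392 against 578 and 578 CPM (0.49 ± 0.12, adjusted p = 0.0169). LXN, latexin, an inhibitor of carboxypeptidases, was low, at 3.37 and 8.48 against 24.1 and 20.8 CPM (1.89 ± 0.54, adjusted p = 0.0496).

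Of 24 tested matrix proteases and inhibitors, 4 rose (PLAT, TIMP3, CTSC and LXN) and 1 fell (median 0.07). The group is a mixture of proteases and inhibitors, with both among the genes that rose. Of the 6 genes that passed in this group, LRP1 included, leaving out knockdown replicate 1, knockdown replicate 2, control replicate 1 or control replicate 2 ended the call of 5, 2, 4 and 4, with adjusted p up to 0.479, 0.136, 0.574 and 0.443.

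**Figure D1:**
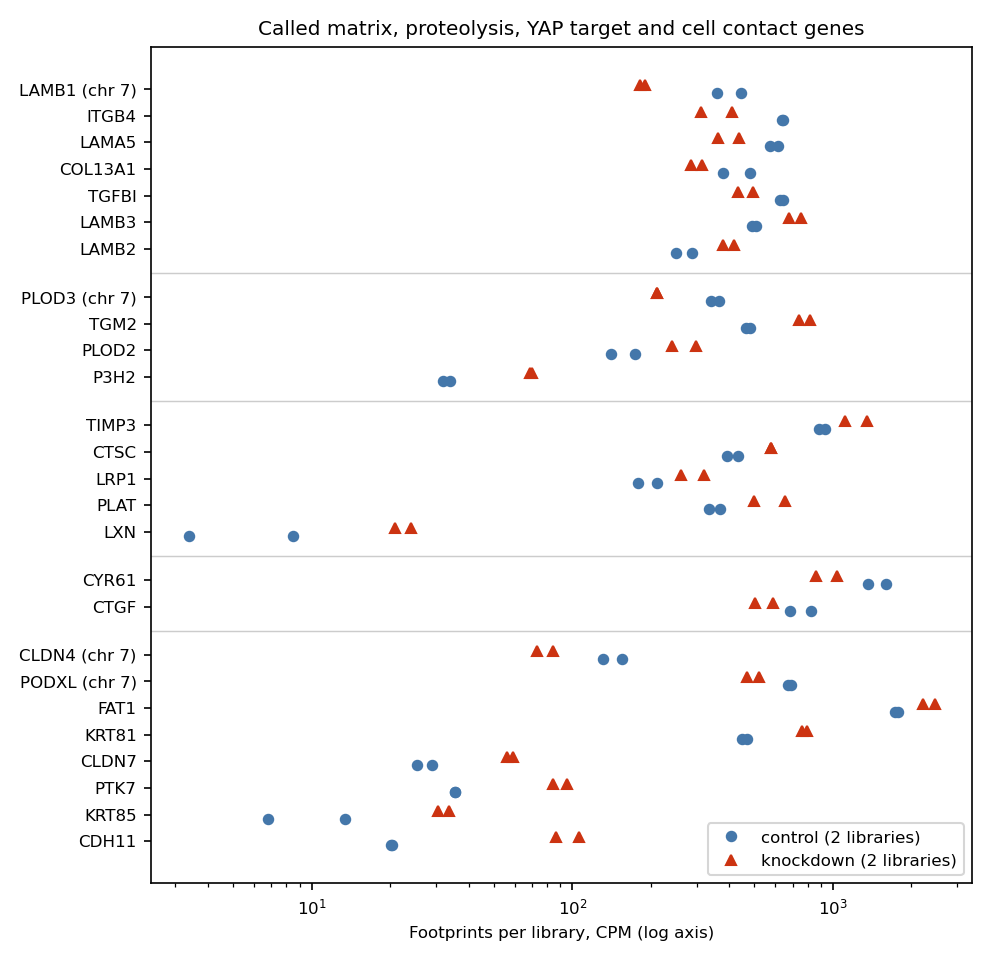
Footprint levels of genes that passed in the matrix, collagen enzyme, proteolysis, YAP target and cell contact groups, other than 1 gene that is not shown. Each circle is a control library and each triangle a knockdown library, on a log axis of CPM, and genes on chromosome 7 are marked. In each row the 2 circles and the 2 triangles do not overlap, as in all 90 genes that passed and 39.4% of all tested genes. CDH11, PTK7 and PLAT lie to the right in the knockdown and LAMB1 and ITGB4 to the left.

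YAP is a co-activator that works through TEAD factors when cells spread on a stiff matrix, and CYR61 and CTGF (CCN1 and CCN2 in current naming) are its most used target genes; both encode secreted matrix-associated proteins. Both fell. CYR61 read 1369 and 1597 CPM in the control and 1033 and 862 CPM in the knockdown (-0.65 ± 0.11, adjusted p = 1.03e-05). CTGF read 682 and 826 against 587 and 503 CPM (-0.47 ± 0.12, adjusted p = 0.0169). The fall was not shared by the list: of 20 tested YAP and SRF targets these 2 fell, 0 rose, 10 were above 0 and 10 below, and the median was 0.02, against 0.00 for all tested genes. ANKRD1 and AMOTL2, further TEAD targets, were at -0.33 (adjusted p = 0.281) and -0.56 (adjusted p = 0.0678). Leaving out knockdown replicate 2 ended the call of 1 of the 2 genes (adjusted p 0.339) and leaving out control replicate 2 that of both (adjusted p up to 0.585).

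The promoter of CTGF is printed because TEAD sites in it are the textbook example of this regulation. The window is the 250 bases before the RefSeq start, chr6:131951373-131951622, minus strand, GRCh38.p14. Capitals mark GGAATG, the core that TEAD factors bind (searched on both strands, with CATTCC as its reverse).
CTGF: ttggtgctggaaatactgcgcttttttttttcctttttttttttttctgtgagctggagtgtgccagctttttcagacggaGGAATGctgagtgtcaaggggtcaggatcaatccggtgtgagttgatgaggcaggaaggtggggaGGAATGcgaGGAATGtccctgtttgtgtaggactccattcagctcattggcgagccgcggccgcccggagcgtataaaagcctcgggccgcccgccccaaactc
It holds 3 matches, 169, 104 and 95 bases before the start. Such a match is common: it was found in 11.9% of all 27305 promoters of the same length, in 9.05% of those of tested genes, in 4 of 42 genes that fell (9.52%) and in 0 of 27 that rose. Among the tested YAP and SRF targets 5 of 15 held it (33.3%). That list was written from known targets, so its share is no support for a role of these sites here. CYR61 was not matched in the promoter table.

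Of 8 genes of cell contacts and keratins that passed, 6 rose and 2 fell. CDH11, a mesenchymal cadherin, read 20.2 and 20.4 CPM in the control and 106 and 86.9 CPM in the knockdown (2.24 ± 0.28, adjusted p = 3.23e-10), the largest rise of the 37. FAT1, a giant protocadherin, read 1775 and 1733 against 2458 and 2219 CPM in a smaller but well-covered change (0.41 ± 0.10, adjusted p = 0.011). PTK7, a catalytically inactive receptor kinase of planar cell polarity, read 35.4 and 35.6 against 95.2 and 84.4 CPM (1.34 ± 0.25, adjusted p = 0.000122). Of 13 tested cadherins and catenins CDH11 alone passed (median 0.16), and of 26 receptor kinases and Wnt receptors PTK7 alone, while 19 of those 26 were below 0 (median -0.16).

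Claudins, which seal tight junctions, split. CLDN7 rose from 25.3 and 28.8 CPM to 59.0 and 56.3 CPM (1.09 ± 0.29, adjusted p = 0.0309). CLDN4, encoded on chromosome 7, fell from 155 and 131 CPM to 73.5 and 84.4 CPM (-0.85 ± 0.19, adjusted p = 0.00353). When chromosome 7 genes were scaled among themselves, CLDN4 was at -0.46 ± 0.19 and did not pass (adjusted p = 0.429). The hair keratin KRT81 read 448 and 468 against 799 and 760 CPM (0.77 ± 0.12, adjusted p = 1.27e-06). KRT85, its neighbour in the type II keratin cluster, was low, at 13.5 and 6.78 against 33.7 and 30.6 CPM (1.65 ± 0.44, adjusted p = 0.0309), and had 0 counts in the 4 total RNA libraries of these arms. What its footprint reads are was not tested. Of 16 tested tight junction and keratin genes 3 rose and 1 fell (median 0.13). PODXL, an anti-adhesive sialomucin of chromosome 7, fell by 0.46 ± 0.12 on the log2 scale (adjusted p = 0.0169). CDH11, KRT81 and PTK7 passed without any 1 of the 4 libraries. Of all 8 genes of this group, leaving out knockdown replicate 1, knockdown replicate 2, control replicate 1 or control replicate 2 ended the call of 5, 3, 5 and 4, with adjusted p up to 0.251, 0.284, 0.348 and 0.502.

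Among cytoskeletal genes, 3 of the 36 tested members of the actin list fell and 0 rose (median 0.03). ACTB, beta actin, encoded on chromosome 7, read 5921 and 5871 CPM in the control and 4265 and 4129 CPM in the knockdown (-0.49 ± 0.10, adjusted p = 0.000325). FLNC, a filamin that cross-links actin, also on chromosome 7, read 308 and 392 against 211 and 239 CPM (-0.64 ± 0.14, adjusted p = 0.00401; DESeq2 0.352). TAGLN2, transgelin 2, on chromosome 1, read 886 and 795 against 625 and 631 CPM (-0.42 ± 0.11, adjusted p = 0.0309). Only the last of these falls lies off chromosome 7. TES, which was counted with focal adhesion above, read 234 and 210 against 138 and 162 CPM (-0.57 ± 0.16, adjusted p = 0.0425). Outside the list, PLS3, the actin-bundling plastin 3, rose by 0.44 ± 0.12 (adjusted p = 0.0309) and ARHGAP29, a RhoA-inactivating protein, by 0.46 ± 0.13 (adjusted p = 0.0425). ACTB passed without any 1 of the 4 libraries. When chromosome 7 genes were scaled among themselves, ACTB was at -0.09 ± 0.09 and did not pass (adjusted p = 0.8575). Of these 6 genes, leaving out knockdown replicate 1, knockdown replicate 2, control replicate 1 or control replicate 2 ended the call of 5, 4, 4 and 5 (adjusted p up to 0.45, 0.209, 0.49 and 0.485).

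Of the genes that passed, 14 encode receptors, ligands or signalling proteins, and they moved in both directions. Among those that rose, RASD1, a dexamethasone-induced Ras-like protein, read 48.8 and 39.0 CPM in the control and 97.6 and 94.2 CPM in the knockdown (1.12 ± 0.23, adjusted p = 0.00118). PDGFC, a ligand of PDGF receptors, read 43.8 and 49.2 against 116 and 82.0 CPM (1.09 ± 0.23, adjusted p = 0.00174). ENPP1, an ectoenzyme that splits ATP and cyclic GMP-AMP, read 116 and 108 against 238 and 179 CPM (0.89 ± 0.17, adjusted p = 0.000217). CD55, which protects cells from complement, read 350 and 354 against 589 and 464 CPM (0.58 ± 0.13, adjusted p = 0.00286). The arms did not overlap in these 4 genes, as in all 90 genes that passed and 39.4% of all tested genes. In each of the 4, knockdown replicate 1 was the higher of its pair. The retinoic acid-induced receptor GPRC5A rose by 0.47 ± 0.11 (adjusted p = 0.00523), and SRGN, the proteoglycan serglycin, by 0.49 ± 0.14 (adjusted p = 0.0493).

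GPRC5C, a relative of GPRC5A, went the other way, from 97.7 and 100 CPM to 36.1 and 31.8 CPM (-1.53 ± 0.24, adjusted p = 1.27e-06). S100A4, a calcium-binding protein tied to motility, read 807 and 834 against 375 and 312 CPM (-1.26 ± 0.12, adjusted p = 1.97e-16), and the other 15 tested S100 and annexin genes did not pass (median of the 16 tested, 0.07). IGFBP1, an IGF-binding protein of chromosome 7, read 116 and 102 against 50.6 and 39.2 CPM (-1.28 ± 0.22, adjusted p = 2.27e-05). GNB2 and YWHAG, both on chromosome 7, and EMP3, a membrane protein of chromosome 19, also fell. EMP3 and the G protein subunit GNB2 did so by 0.39 ± 0.11 and 0.49 ± 0.13 on the log2 scale, and the 14-3-3 protein YWHAG by 0.46 ± 0.13.

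GPRC5C, IGFBP1 and S100A4 passed without any 1 of the 4 libraries. Of the 14 signalling genes, leaving out knockdown replicate 1, knockdown replicate 2, control replicate 1 or control replicate 2 ended the call of 10, 5, 8 and 11, with adjusted p up to 0.814, 0.457, 0.619 and 0.62.

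RNA and chromatin genes that passed were 8 that rose, 1 that fell off chromosome 7 and 6 that fell on it. EXOSC3, a cap subunit of the RNA exosome, read 32.0 and 30.5 CPM in the control and 84.3 and 67.3 CPM in the knockdown (1.27 ± 0.27, adjusted p = 0.00133). LSM4, a ring protein of mRNA decapping and U6 RNA, read 2393 and 2939 against 3345 and 4222 CPM (0.51 ± 0.11, adjusted p = 0.00228; DESeq2 0.64). Its total RNA lay between 46.7 and 58.2 CPM, and what its many footprint reads are was not tested. LSM8, the ring member that directs it to U6 and is encoded on chromosome 7, read 60.6 and 56.0 against 32.5 and 20.8 CPM (-1.12 ± 0.29, adjusted p = 0.0225). These 3 were the calls among 31 tested genes of RNA decay and the exosome (median 0.10). H1F0, linker histone H1.0, read 273 and 392 against 465 and 522 CPM (0.57 ± 0.13, adjusted p = 0.00458), and HIST2H2BE, a core histone with a polyadenylated transcript, read 298 and 251 against 163 and 202 CPM (-0.59 ± 0.15, adjusted p = 0.0169). The other 20 tested histone and HMG genes did not pass, and 16 of the 22 were below 0 (median -0.13).

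TAF7, a subunit of the general transcription factor TFIID, and TAF15, an RNA-binding protein associated with it, rose by 0.66 ± 0.15 and 0.53 ± 0.15 (adjusted p = 0.00641 and 0.0458). The chromatin remodeller CHD9 rose by 1.20 ± 0.34 and RBM15, a cofactor of m6A methylation, by 0.99 ± 0.28 (adjusted p = 0.0493 for both). TNPO3, the nuclear importer of SR proteins, on chromosome 7, read 136 and 148 against 67.5 and 86.9 CPM (-0.88 ± 0.19, adjusted p = 0.00233). COPS6, FOXK1, SUN1 and SND1, also on chromosome 7, fell by 0.55, 0.81, 0.55 and 0.43 on the log2 scale.

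ZNF10 had the lowest adjusted p of the genes that rose, at 185 and 161 CPM in the control and 514 and 490 CPM in the knockdown (1.53 ± 0.14, adjusted p = 1.71e-16). ZNF10 encodes the zinc finger protein whose KRAB repressor domain is widely fused to dCas9 for CRISPRi. The labels do not name the repressor, and a count per gene cannot tell the gene's own mRNA from a transcript of a construct that carries part of it. The other 18 tested genes of KRAB silencing did not pass (median of the 19, 0.01), and the corepressor TRIM28 was at -0.01 (adjusted p = 0.985). ZNF10 passed without any 1 of the 4 libraries. Of all 15 RNA and chromatin genes, leaving out knockdown replicate 1, knockdown replicate 2, control replicate 1 or control replicate 2 ended the call of 10, 10, 12 and 12 (adjusted p up to 0.415, 0.51, 0.607 and 0.835).

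Few genes of protein synthesis and amino acid supply passed, among them 1 tRNA synthetase up and 3 ribosomal proteins and both chains of the isoleucine transporter down. The cytosolic isoleucyl-tRNA synthetase, which charges the tRNA that was targeted, was at 0.04 ± 0.12 (IARS, adjusted p = 0.952), and the mitochondrial one at -0.09 ± 0.16 (IARS2, adjusted p = 0.912). Of 24 synthetases only TARS, for threonine, passed, at 690 and 600 CPM in the control and 871 and 879 CPM in the knockdown (0.44 ± 0.11, adjusted p = 0.0203; list median 0.03). SLC7A5 and SLC3A2 form LAT1, the exchanger that imports isoleucine, leucine and other large neutral amino acids. SLC7A5 read 495 and 504 against 393 and 341 CPM (-0.44 ± 0.12, adjusted p = 0.0436), and SLC3A2 read 904 and 955 against 717 and 700 CPM (-0.39 ± 0.11, adjusted p = 0.0464). The arms did not overlap in either chain, as in all 90 genes that passed and 39.4% of all tested genes. These were the only calls among 15 amino acid transporters (median -0.06) and among 18 genes of the integrated stress response, a programme that uncharged tRNA can start through GCN2, in which ASNS (-0.07), ATF4 (-0.37) and DDIT4 (0.16) did not pass (median 0.01).

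Ribosomal proteins leaned down. RPS15 read 460 and 398 CPM in the control and 292 and 305 CPM in the knockdown (-0.53 ± 0.13, adjusted p = 0.0133). RPS16 read 455 and 539 against 353 and 366 CPM (-0.47 ± 0.12, adjusted p = 0.0308). RPL13A read 365 and 370 against 258 and 263 CPM (-0.50 ± 0.13, adjusted p = 0.0325). Of the small subunit's 27 tested genes 2 fell and 24 were below 0 (median -0.15), and of the large subunit's 38, 1 fell and 29 were below 0 (median -0.13). Among all tested genes the median was 0.00 and 4052 of 8143 were below 0. The summed level of the small subunit genes was 12500 and 12060 CPM in the control and 10570 and 11170 CPM in the knockdown. Total RNA did not show this lean: its list medians were 0.09 for the small and 0.07 for the large subunit. MALSU1, an assembly factor of the mitochondrial ribosome, on chromosome 7, fell by 0.90 ± 0.25 (adjusted p = 0.0436). Each of the 7 genes of protein synthesis and amino acid supply lost its call in each of the 4 fits that left out a library, with adjusted p up to 0.267, 0.467, 0.434 and 0.585 without knockdown replicate 1, knockdown replicate 2, control replicate 1 and control replicate 2.

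Metabolic and mitochondrial genes that passed were 11, of which TXNIP alone rose. TXNIP, an arrestin-like protein that limits glucose uptake and binds thioredoxin, read 130 and 126 CPM in the control and 224 and 236 CPM in the knockdown (0.85 ± 0.16, adjusted p = 0.000263). Its promoter is shown because it responds to glucose through a carbohydrate response element. The window is the 250 bases before the RefSeq start, chr1:145996580-145996829, minus strand, GRCh38.p14, with capitals on the motif: CACGAG, any 5 bases, and CACGAG again, searched on both strands.
TXNIP: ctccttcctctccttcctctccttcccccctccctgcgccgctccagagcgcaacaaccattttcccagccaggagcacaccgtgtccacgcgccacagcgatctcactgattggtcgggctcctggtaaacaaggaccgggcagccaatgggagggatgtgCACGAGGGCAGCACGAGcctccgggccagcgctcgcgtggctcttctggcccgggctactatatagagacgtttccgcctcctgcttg
The motif has 1 match, 88 bases before the start. Its fixed bases are those of the TXNIP element itself, so this match was set in advance. The shares that follow describe how rare that exact string is and are no support for a role of the element here. It was found in 2 of 27305 promoters in all (0.00732%). Among tested genes it was found in 2 of 6816 (0.0293%), and TXNIP was the 1 of 27 genes that rose and had an entry.

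Of the 10 metabolic genes that fell, 6 lie on chromosome 7. Off that chromosome, GFPT2, which starts the hexosamine pathway, read 111 and 114 CPM in the control and 67.5 and 53.8 CPM in the knockdown (-0.89 ± 0.21, adjusted p = 0.00843). EBP, a sterol isomerase of cholesterol synthesis, read 239 and 222 against 169 and 147 CPM (-0.55 ± 0.15, adjusted p = 0.0468), the only call among 26 cholesterol genes (median -0.05). CHCHD10, a protein of mitochondrial cristae, fell by 1.03 ± 0.28 on the log2 scale (adjusted p = 0.0426). SLC22A2, an organic cation transporter of kidney, had 232 and 279 footprint counts in the control and 219 and 282 in the knockdown, which is a fall of 0.50 ± 0.13 after scaling (adjusted p = 0.0309; DESeq2 0.621), but 0 counts in the 4 total RNA libraries. What these footprint reads are was not tested.

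On chromosome 7, PON2, a paraoxonase of mitochondrial membranes, read 25.3 and 22.0 against 4.82 and 3.67 CPM (-2.43 ± 0.58, adjusted p = 0.00937). NDUFB2, a subunit of complex I, read 103 and 96.7 against 61.4 and 50.2 CPM (-0.83 ± 0.21, adjusted p = 0.0205), the only call among 37 nuclear genes of oxidative phosphorylation (median -0.07). FIS1, a mitochondrial fission protein, and TBRG4, a mitochondrial RNA-binding protein, fell by 0.78 and 0.73 on the log2 scale. The anion exchanger SLC4A2 fell by 0.52, and SLC12A9 read 52.2 and 44.1 against 24.1 and 18.4 CPM. Of the 11 metabolic genes, leaving out knockdown replicate 1, knockdown replicate 2, control replicate 1 or control replicate 2 ended the call of 9, 8, 9 and 11, with adjusted p up to 0.608, 0.405, 0.436 and 0.624.

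The remaining 10 genes, most of them of folding and the secretory pathway, were 3 that rose and 7 that fell, all 7 on chromosome 7. HSPB1, the small heat shock protein Hsp27, read 350 and 354 CPM in the control and 189 and 209 CPM in the knockdown (-0.82 ± 0.14, adjusted p = 1.33e-05). It was the only call among 27 chaperones (median 0.08). KDELR2, which returns chaperones from the Golgi, read 406 and 404 against 271 and 279 CPM (-0.56 ± 0.13, adjusted p = 0.00729). GUSB, the lysosomal beta-glucuronidase, read 150 and 114 against 94.0 and 68.5 CPM (-0.70 ± 0.19, adjusted p = 0.0436). These were the only calls in the lists of 28 secretory pathway and 27 lysosomal genes (medians -0.11 and -0.09). AP1S1, SUMF2, PDAP1 and the centrosomal protein CEP41 fell by 0.63, 0.66, 0.87 and 1.25 on the log2 scale. The genes that rose lie elsewhere: DNAJC1, an ER co-chaperone (0.68 ± 0.17, adjusted p = 0.0217), PTGES3, the Hsp90 co-chaperone p23 (0.67 ± 0.18, adjusted p = 0.0394), and MAGT1, a subunit of the oligosaccharyltransferase (0.55 ± 0.15, adjusted p = 0.0387). HSPB1 passed without any 1 of the 4 libraries, but not when chromosome 7 genes were scaled among themselves (-0.43 ± 0.14, adjusted p = 0.191). Of the 10 genes, leaving out knockdown replicate 1, knockdown replicate 2, control replicate 1 or control replicate 2 ended the call of 6, 7, 9 and 8 (adjusted p up to 0.743, 0.511, 0.633 and 0.458).

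Across 40 gene lists, the medians of the knockdown ran from -0.16 to 0.16, against 0.00 for all tested genes and 0.02 for those off chromosome 7. At the low end were receptor kinases, the 2 ribosomal subunits, histones, the redox, glutathione and iron list (29 tested, PON2 its only call, median -0.11), the secretory pathway (median -0.11) and immediate early genes (20 tested, 0 calls, 15 below 0, median -0.10). At the high end were cadherins, tight junctions and keratins, p53 targets (10 tested, 0 calls, 8 above 0, median 0.13) and RNA decay. In lists of growth factors and IGF binding (24 tested, PDGFC up, IGFBP1 down) and of interferon, NF-kB and MHC genes (33 tested, CD55 up) the medians were 0.02 and -0.01.

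Lists with no call are described by the 2 members with the lowest p. In hypoxia and glycolysis, HIF1A, the oxygen-regulated transcription factor, was at 0.37 ± 0.10 (adjusted p = 0.0551) and the mitophagy receptor BNIP3L at 0.38 ± 0.17 (adjusted p = 0.377; 30 tested, median 0.03). Among translation factors EEF1G and EIF4H, the latter on chromosome 7, were at -0.55 ± 0.17 and -0.52 ± 0.23 (adjusted p = 0.113 and 0.377). The list's median was -0.01. In the tRNA processing list, SSB, the La protein that binds the ends of new tRNAs, was at -0.52 ± 0.20 and RPP30, a subunit of RNase P, at 0.57 ± 0.24 (adjusted p = 0.277 and 0.35; 37 tested, median 0.03). Ribosome biogenesis had BYSL at -0.39 and NOLC1 at 0.28 (27 tested, median 0.04). The mitochondrial ribosome had MRPS24 at -0.78 ± 0.23 (adjusted p = 0.0677) and MRPL32 at -0.46, both on chromosome 7 (35 tested, median -0.06). So no list of the machinery that makes or uses tRNA held a gene that passed, apart from TARS and the ribosomal proteins above.

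In protein quality control, the proteasome had PSMA2 at -0.51 ± 0.15 (adjusted p = 0.0654) and PSMA5 at 0.34 (33 tested, median -0.01), and ER folding had PDIA4 at -0.36 and ERP29 at -0.29 (27 tested, median -0.03). In metabolism, fatty acid synthesis had ACSL3 at 0.27 and PLIN2 at 0.30 (21 tested, median -0.06). Serine, one-carbon and nucleotide synthesis had DHODH, the pyrimidine enzyme, at -1.76 ± 0.60 (adjusted p = 0.169) and ATIC at 0.30 (29 tested, median 0.02), and polyamines had SRM at -0.27 and ARG2 at 0.39 (11 tested, median -0.01). In the nucleus, DNA replication had MCM7 at -0.29 and POLD2 at -0.48 (31 tested, median 0.05), mitosis NCAPG2 at -0.32 and ANLN at -0.24 (32 tested, median -0.01), and splicing SF3B1 at 0.34 and SF1 at -0.28 (33 tested, median 0.06). Immediate early genes had KLF10 at -0.52 and JUNB at 0.62, and p53 targets BAX at -0.21 and AEN at 0.52. None of these passed, which does not show that they did not change. Of the genes named for lists with no call, EIF4H, MRPS24, MRPL32, PSMA2, PDIA4, MCM7, POLD2, NCAPG2 and ANLN lie on chromosome 7, whose genes were lower as a group. When chromosome 7 genes were scaled among themselves, EIF4H, MRPS24, MRPL32, PSMA2 and POLD2 were at -0.13, -0.38, -0.06, -0.11 and -0.08. PDIA4, MCM7, NCAPG2 and ANLN were then at 0.03, 0.10, 0.08 and 0.16.

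**Figure D2:**
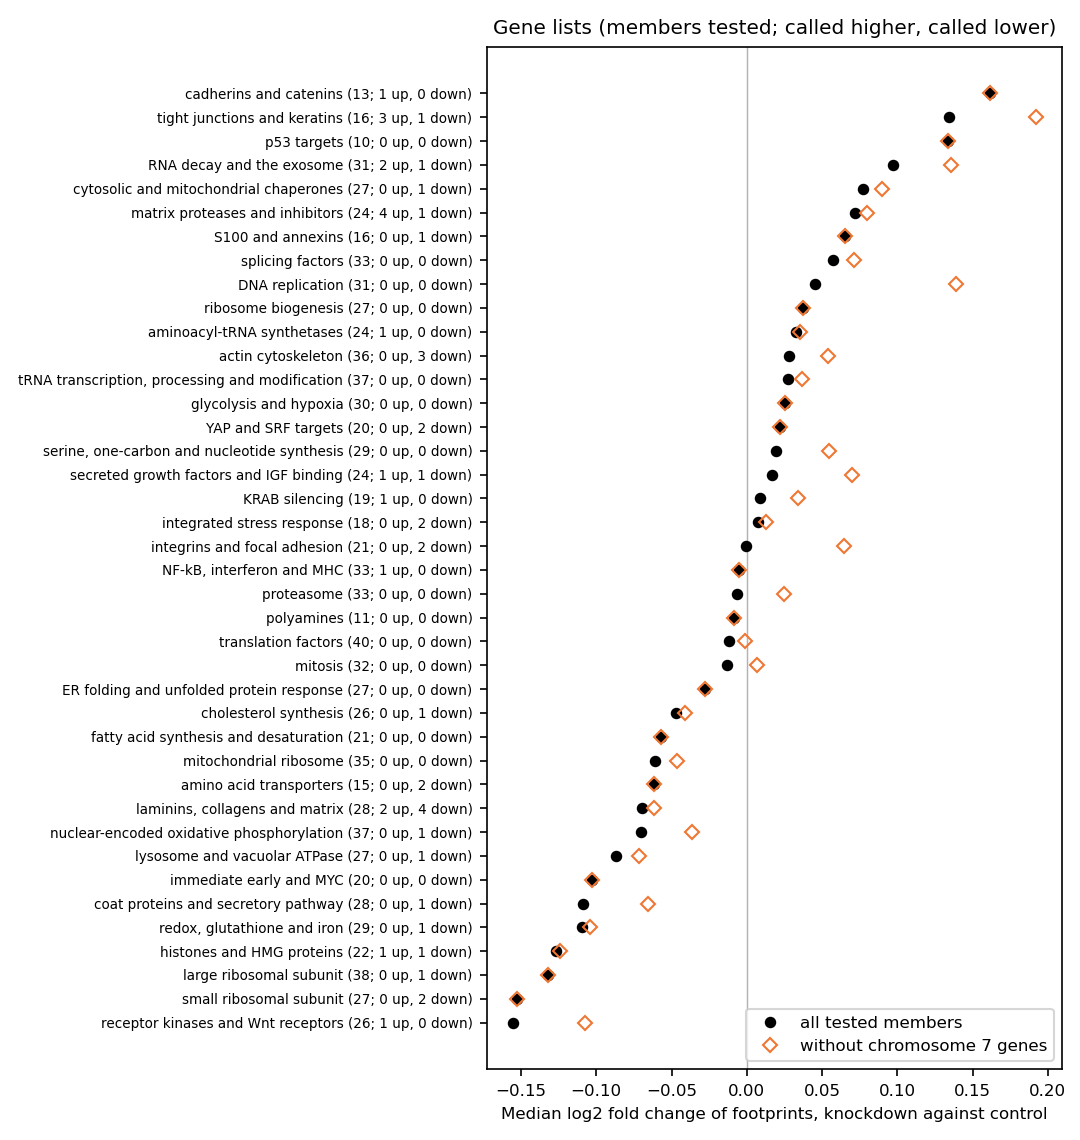
Median log2 fold change of footprints in the knockdown against the control for each of the 40 gene lists, over all tested members (filled circles) and without chromosome 7 genes (open diamonds). Beside each name stand the number of tested members and of those that passed upward and downward; cadherins are at 0.16, the small ribosomal subunit at -0.15 and receptor kinases at -0.16, and the last of these moves to -0.11 without chromosome 7 genes.

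Total RNA of the same arms was sequenced more deeply (2512247 to 4271512 counts per library). The biological coefficient of variation was 14.3% in the fit of total RNA against 6.71% in that of footprints. Each fit also held the libraries with the tRNA-Ile-UAU construct, so these values are not those of the same arms alone. In these arms RNA replicates correlated at 0.986 in the control and 0.985 in the knockdown (log2 CPM), against 0.960 and 0.970 in footprints. With the tRNA-Ile-UAU construct RNA replicates correlated at 0.983 in the eGFP arm and 0.958 in the knockdown. In edgeR's test only CDH11 and ZNF10 rose (0.0171%) and LAMB1 fell (0.00853%) in total RNA, 3 of 11720 tested genes (0.0256%), and DESeq2 called 41 (0.35%). Of the 37 genes with more footprints, 35 were tested in total RNA and 30 were above 0 there, with a median of 0.42 against 0.67 in footprints. Of the 21 that fell off chromosome 7, 20 were tested and 13 were below 0, with a median of -0.17 against -0.54. For all tested genes the sign was shared in 56% of cases. CDH11 had nearly the same fold in both assays (2.34 ± 0.16 in total RNA, adjusted p = 0.000688), and its RNA read 16.2 and 16.7 CPM in the control and 90.6 and 76.7 CPM in the knockdown.

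The ratio of footprints to RNA, the translational efficiency, was tested in 1 fit over both assays, and 0 of 8012 genes passed (0%), with 268 at an unadjusted p under 0.05 (3.34%) and 0 by DESeq2. Some genes with changed footprints had RNA values near 0 change. PDGFC was at -0.06 ± 0.12 in RNA against 1.09 in footprints, EXOSC3 at 0.11 ± 0.18 against 1.27, CHD9 at -0.04 ± 0.16 against 1.20 and TAF7 at -0.01 ± 0.11 against 0.66. HIST2H2BE had opposite signs, 0.61 ± 0.32 in RNA and -0.59 in footprints. The 3 ribosomal proteins did too: RPS15, RPS16 and RPL13A were at 0.36, 0.12 and 0.25 in RNA. In the LAT1 chains RNA was at 0.00 ± 0.18 for SLC7A5 and -0.14 ± 0.20 for SLC3A2. These genes were picked for their footprints, and in none of them did the ratio pass.

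**Figure D3:**
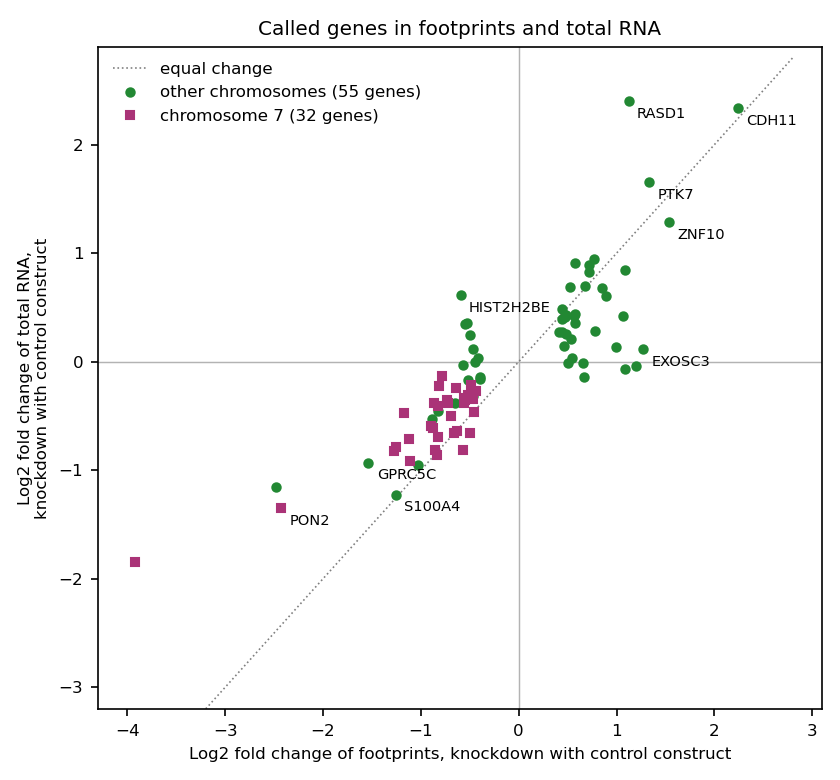
Log2 fold change of the genes that passed in footprints (x axis) and in total RNA (y axis) in the knockdown against the control, for the 87 genes tested in both assays. Circles are genes off chromosome 7 and squares genes on it, and the dotted line marks equal change; CDH11 lies near the line, EXOSC3 near 0 on the y axis, and all 32 squares below 0 on both axes.

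The same knockdown was also made in cells with the tRNA-Ile-UAU construct, with its own eGFP control carrying that construct. Its 4 footprint libraries are not those compared above, but they were part of the same fit. The filter, the scaling and the estimated spread were therefore shared by both comparisons, and passing in both is not independent evidence. With the tRNA-Ile-UAU construct 16 genes rose (0.196%) and 57 fell (0.7%). Of the 90 genes, 77 had the same sign (85.6%, against 58.1% of all tested genes) and 24 passed in the same direction. Of the 37 that rose, 28 had the same sign and 6 passed: CDH11, ZNF10, PTK7, LAMB3, CTSC and TARS. Their median was 0.23, against 0.68 with the control construct. Of the 21 that fell off chromosome 7, 17 had the same sign and 6 passed: S100A4, ITGB4, GPRC5C, CYR61, LAMA5 and CTGF (median -0.27 against -0.53). On chromosome 7, 32 of 32 had the same sign and 12 passed.

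In the matrix group, ITGB4 was at -1.02 ± 0.12 (adjusted p = 2.84e-10), LAMA5 at -0.53 ± 0.12 (adjusted p = 0.00754) and LAMB3 at 0.45 ± 0.12 (adjusted p = 0.033) with the tRNA-Ile-UAU construct. CYR61 was at -0.54 ± 0.11 (adjusted p = 0.00073) and CTGF at -0.56 ± 0.11 (adjusted p = 0.00109). So the falls of integrin beta 4, laminin alpha 5 and both YAP targets and the rise of laminin beta 3 were measured in both sets of libraries. LAMB1 also passed there, while LAMB2 (0.29, adjusted p = 0.447) and COL13A1 (-0.44, adjusted p = 0.106) did not. TGFBI turned sign, at 0.12 (adjusted p = 0.839), and did not pass. Of the collagen enzymes and proteolysis genes, CTSC and PLOD3 passed in the same direction. PLOD2, P3H2, PLAT, LRP1, TIMP3 and LXN, at 0.23, 0.34, 0.17, 0.43, 0.28 and 0.51, did not pass. Among ribosomal proteins, RPS15, RPS16 and RPL13A were at -0.05, 0.17 and -0.15 and did not pass there, and the medians of the small and large subunits at 0.07 and 0.05. SLC7A5 and SLC3A2 were at -0.09 and -0.14 and did not pass. For none of these 5 genes did the difference between the constructs pass. The difference between the 2 knockdown effects passed for 4 of the 90 genes, TGM2, PDGFC, LSM4 and CD55, and for ROR2, in all 5 of 8143 (0.0614%). For the other 86 it did not pass, which does not show that the effects were equal.

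**Figure D4:**
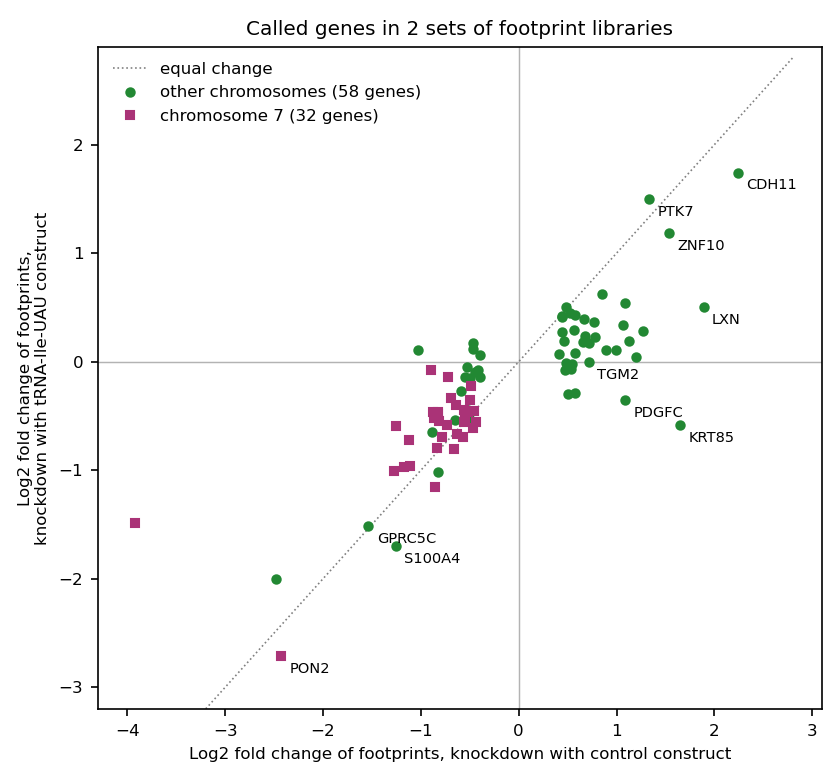
Log2 fold change of the 90 genes in the knockdown with the control construct (x axis) and with the tRNA-Ile-UAU construct (y axis), each against its own eGFP arm. Circles are genes off chromosome 7, squares genes on it, and the dotted line marks equal change; GPRC5C lies on the line at -1.53 and -1.52, S100A4 below it at -1.26 and -1.70, and TGM2 at 0.72 and -0.01.

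Marker genes were summed to see which cells the libraries hold. The 10 markers of mesenchymal breast cancer lines, VIM foremost, summed to 19470 and 20150 CPM in the control and 17460 and 18080 CPM in the knockdown. Of the 9 tested, 0 passed (median -0.16, and -0.13 without chromosome 7 genes). CAV1, on chromosome 7, was at -0.32 ± 0.10 (adjusted p = 0.125), and at 0.08 when scaled within the chromosome. The 12 luminal markers summed to 709 and 731 against 765 and 787 CPM, with ESR1, CDH1 and TFF1 at 0 in all 4 libraries and CLDN4 and CLDN7 the 2 that passed. Fibroblast markers (9) summed to 13.5 to 18.7 against 22.0 to 27.7 CPM, with DCN, POSTN, FAP and THY1 at 0. Leukocyte markers (8) summed to 148 to 197 against 187 to 204 CPM, with CD3E and ITGAM among those at 0. Of these, CD68, which is not specific to leukocytes, read 128 and 175 against 165 and 150.5 CPM, CD14 5.05 and 8.48 against 15.7 and 12.2 CPM, and HLA-DRA 15.2 and 11.9 against 16.9 and 20.8 CPM. Endothelial markers (6) summed to 5.05 to 10.2 against 9.64 to 13.5 CPM, with CDH5 and TEK at 0. VIM alone read 13340 and 14010 against 11700 and 12460 CPM and carries most of the first sum, while SPARC, another of its 10 markers, read 5.05 and 0 against 1.20 and 0 CPM. In bulk libraries fewer cells of a type and less RNA per cell cannot be told apart, and the part of these sums in the gene changes was not tested.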

How the data were processed

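The series holds footprint and total RNA libraries of MDA-MB-231 cells, grouped by the assay, CRISPRi target and construct in their titles, 2 per group. The authors deposited raw counts for each gene symbol. They used, per the submitters' processing notes, cutadapt 1.17, STAR 2.5.2a, HTSeq and build hg38. The order, settings and annotation are not given in the sources used here. A gene missing from a footprint file was given a count of 0, and the HTSeq summary lines were left out of the tests. Of 26485 symbols, 23758 are current RefSeq names (GRCh38.p14), 1562 were matched as older names and 1165 have no position here.

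edgeR 4.0.16 (R 4.3.3) was used for the tests: filterByExpr by group (minimum count 10, minimum total 15), TMM scaling, the quasi-likelihood test on all 8 footprint libraries (4 residual degrees of freedom) and Benjamini-Hochberg adjustment over all tested genes. The threshold was an adjusted p of 0.05. The contrasts were the knockdown with each construct, their difference (the effect with the tRNA-Ile-UAU construct minus that with the control construct), the knockdown in total RNA, and footprints over RNA in 1 fit of both assays (8 residual degrees of freedom). Errors are standard errors of the fit, and CPM values use TMM-scaled library sizes. Tested on simulated counts for this knockdown contrast (7946 genes in the fit), the test recovered 19 of 99 genes changed 1.5-fold and 61 of 99 changed 2-fold, with 0 wrong signs and 5 unchanged genes called. Alternatives were DESeq2 1.42.0, RLE scaling, no filter, a replicate block, each library left out, only the 4 libraries compared, chromosome 7 genes left out, and libraries thinned to the shallowest. A scaling of chromosome 7 genes among themselves and the alternatives for the difference of the 2 knockdown effects, with libraries left out, were chosen after seeing the data.

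The comparison, the 40 gene lists, the 5 marker lists, the tests and the rule for named genes were chosen with earlier results of these data known, and the 11 functional groups of the text were formed after the genes that passed were known. The lists get counts and medians only, with no test. By the rule, values in every library are given for the 12 genes with the lowest adjusted p in each direction off chromosome 7, the 8 on it and the list members that passed. Other genes that passed are named with their fold change. Some genes that the rule names are not reported here. Where a list had none, its 2 members with the lowest p are named. The promoters are from RefSeq (GRCh38.p14). Correlations of replicate deviations between same-numbered footprint libraries were -0.04 to 0.06, so the numbers pair no footprint libraries. In total RNA they ran from -0.42 to 0.36, with -0.01 between the control and the knockdown. What the larger values reflect was not tested. A comparison of changes with the share of isoleucine codons was not run, since coding sequences were not used here.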

Additional observations from a re-analysis of the deposited data

Results flagged for a closer look

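The effect of the knockdown differed between the 2 constructs for 5 genes, by edgeR's quasi-likelihood test of the difference itself (the effect with the tRNA-Ile-UAU construct minus that with the control construct, log2). For TGM2, the transglutaminase, the difference was -0.72 (adjusted p = 0.0447): the control and knockdown read 463 and 482 against 814 and 738 CPM with the control construct, and 606 and 606 against 581 and 630 CPM with the other. For PDGFC it was -1.44 (adjusted p = 0.0447) and for CD55 -0.87 (adjusted p = 0.0132), with log2 fold changes of 1.09 and 0.58 with the control construct and -0.35 and -0.29 with the other. For LSM4 it was -0.80 (adjusted p = 0.0023), with the 4 libraries of the tRNA-Ile-UAU construct at 3310 and 3630 against 2108 and 3573 CPM; LSM4 total RNA lay between 46.7 and 58.2 CPM in the 4 libraries of the control construct. For ROR2, a Wnt receptor kinase, it was -2.59 (adjusted p = 0.000356). Its footprints read 67.4 and 42.4 against 37.3 and 97.9 CPM with the control construct and 65.7 and 62.9 against 8.56 and 19.2 CPM with the other, while total RNA of the control construct held 0 counts in all 4 libraries. With the control construct the 2 knockdown libraries of ROR2 lay on both sides of the control libraries.

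Of 8 fits that each left out 1 footprint library, ROR2 and LSM4 passed in 5, CD55 in 4, and PDGFC and TGM2 in 2. Without replicate 2 of the eGFP arm with the tRNA-Ile-UAU construct 0 genes passed, 1 without control replicate 1 and 1 without control replicate 2. DESeq2 gave an adjusted p of 0.9995 for each of the 5.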

How the results depend on the processing

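With 90 genes called in footprints, RLE scaling gave 90, no filter on low counts 75 and a fit of only the 4 libraries 96. DESeq2 gave 25 (no adjusted p for 45 of the 90), chromosome 7 genes left out 42, chromosome 7 genes scaled among themselves 49 and libraries thinned to the shallowest 45. Leaving out 1 library gave 18 to 46. With the tRNA-Ile-UAU construct, where 73 genes passed, DESeq2 gave 26 and leaving out 1 library 19 to 74. For the difference between the constructs, where 5 passed, DESeq2 gave 0 and leaving out 1 library 0 to 10. In total RNA, where 3 passed, DESeq2 gave 41, no filter 99 and leaving out 1 library 0 to 1. Footprints over RNA gave 0 under each alternative run. No gene that passed did so in the opposite direction under any alternative run. The cause of these shifts was not tested, except that thinning and leaving out libraries hold fewer counts or samples.

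With the replicate number as a block, 109 genes passed in footprints, among them all 90. With the tRNA-Ile-UAU construct 106 passed. The difference had 8, total RNA 2 and footprints over RNA 0. The numbers do not pair the footprint libraries, and in total RNA the correlations of deviations ran from -0.42 to 0.36.

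List medians moved by more than the replicate spread without chromosome 7 genes in 3 lists: integrins from 0.00 to 0.06, receptor kinases from -0.16 to -0.11 and DNA replication from 0.05 to 0.14. At this depth the simulated test missed most changes of 1.5-fold, so single genes without a call may have changed by that much. The simulation did not cover list medians. The comparison with the isoleucine share of coding sequences was not run.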

Other observations

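When chromosome 7 genes were scaled among themselves, HNRNPA2B1, a splicing factor on that chromosome, passed as higher relative to the other chromosome 7 genes (0.42 ± 0.10 on the log2 scale, adjusted p = 0.0162 by edgeR's quasi-likelihood test). Without that scaling no chromosome 7 gene passed as higher in the knockdown. HNRNPA2B1 was picked after its value was seen.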
